A study of Sus scrofa with 22 samples.

Results

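Cloned pig fetuses labelled normal were compared between 2 gestational ages, day 35 and day 30, by RNA sequencing of body tissue. Of the 22 libraries of the series, 6 entered the comparison: all 3 titled day35-normal and all 3 titled day30-normal, each labelled male. Cloning here means somatic cell nuclear transfer, in which the nucleus of a body cell is placed in an egg whose own nucleus was removed. Naturally fertilized (NF) fetuses of the same ages gave 4 more libraries, used only to ask whether their day effect differed: 2 at day 35, both labelled male, and 2 at day 30, labelled male and female. The labels name no donor line, no criterion for "normal", no part of the body and no agent or engineered allele for any of these groups. Nor do they state whether each replicate is its own animal, and p-values therefore measure the spread between libraries, which may be technical.

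These ages fall in the part of pig gestation in which organ rudiments grow and differentiate. Red blood cells of the embryo first come from the yolk sac and carry embryonic globins, and are later replaced by cells of the fetal liver that carry other globins. Muscle fibres, neurons and connective tissue leave the cell cycle as they mature, while the limb bud and cartilage templates are set up early and are then remodelled. RNA of a mixed tissue cannot tell apart a change in the number of cells of a type and a change in RNA per cell.

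Total expected counts were 6.06 to 8.45 M (M, 1e6 counts) per day 35 library and 5.68 to 9.36 M per day 30 library. Records matched to genes held 4.07 to 5.73 M at day 35 and 3.78 to 6.24 M at day 30, with 10824 to 10985 genes detected at day 35 and 10420 to 10641 at day 30. Spearman correlation across genes was 0.973 to 0.976 within day 35, 0.986 to 0.989 within day 30 and 0.92 to 0.967 between days. Day 35 replicate 1 stood farthest from the day 30 libraries, at 0.92 to 0.937, and day 35 replicate 3 nearest, at 0.954 to 0.967. The Y-linked gene EIF1AY had 32.0, 21.1 and 29.1 CPM (counts scaled to library size) at day 35, against 43.9, 32.7 and 36.5 CPM at day 30, so every normal clone library held Y-linked transcripts, as its label says.

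Of 9067 genes tested, 3635 (40.1%) differed between day 35 and day 30 at an adjusted p under 0.05 in edgeR's quasi-likelihood test, which is the meaning of "called" here. In day 35 clones 1908 genes (21%) were higher and 1727 (19%) lower, and the median log2 fold change of all genes was 0.02. The libraries of the days did not overlap in 5032 genes (55.5%). Genes named below as the largest changes were picked among these. Their lack of overlap was therefore fixed by the choice and is no support of its own. A gene with few counts at one day could enter the test through the other day alone. The number of calls depended on the libraries that set the spread: with all 14 fetus libraries of the series it was 911, of which 876 were among the 3635, and every one of the 3635 kept its sign. It was 2175 without day 30 replicate 2, and 953 of 2656 genes tested when records were matched with their version. A list of genes is described below by its called members beside 21% higher and 19% lower for all genes.

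**Figure D1:**
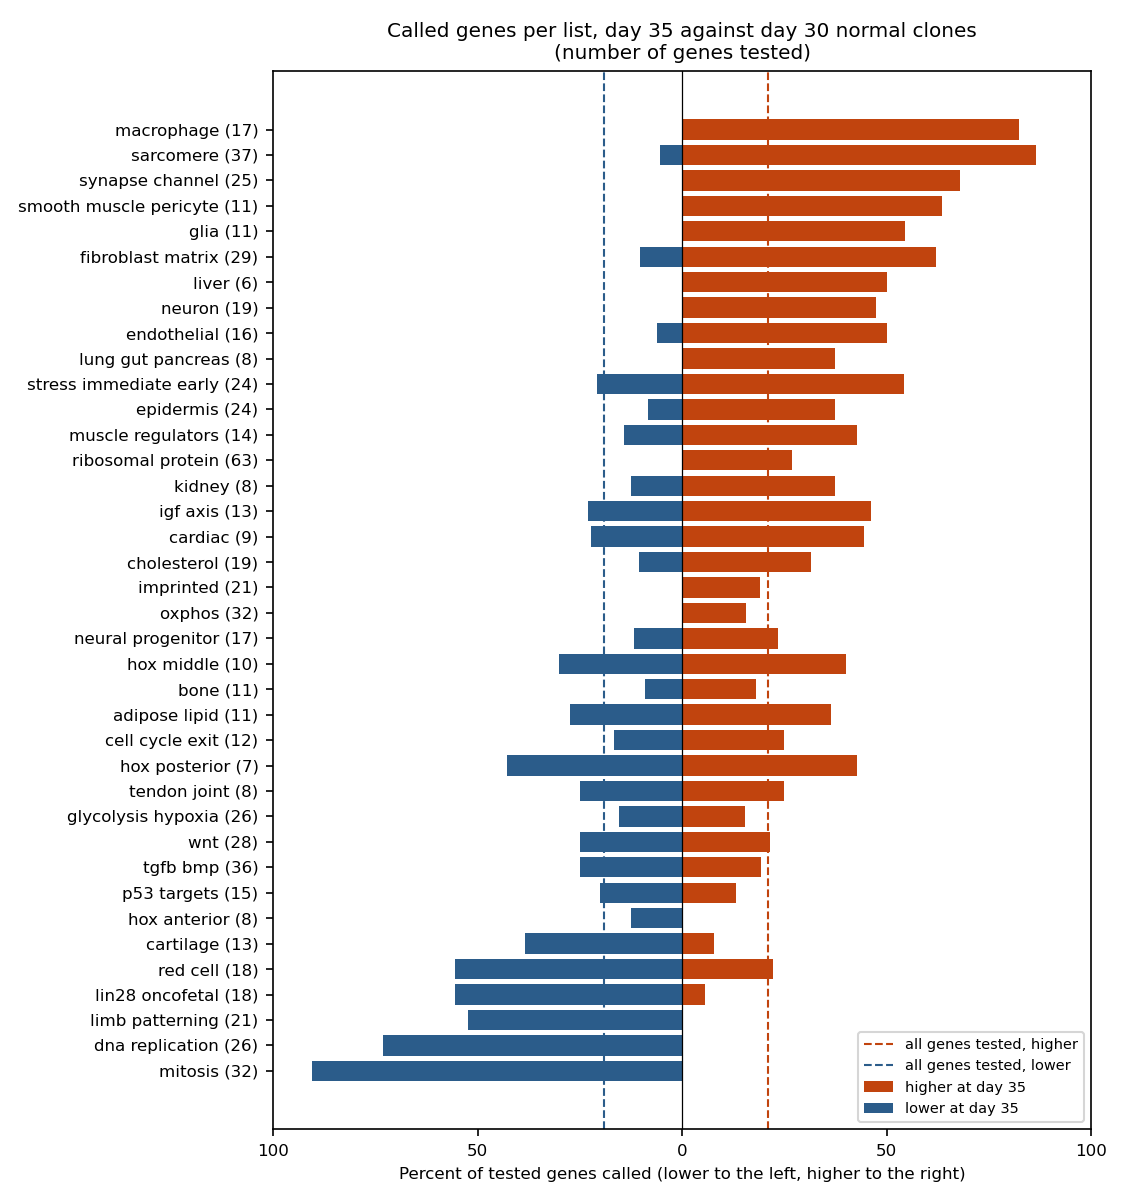
Percent of the tested genes of each list that were called lower (to the left) and higher (to the right) in day 35 than in day 30 normal clones; the number tested is in parentheses and dashed lines mark all genes, 21% higher and 19% lower. Lists with at least 5 tested genes are drawn. Macrophage and sarcomere genes stand at the top with 82.4% and 86.5% higher, and mitosis genes at the bottom with 90.6% lower.

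Blood genes changed by large folds. Of 3 embryonic globin genes tested 2, HBE1 and HBZ, were lower at day 35, and 1 was not called. Day 30 clones expressed HBE1 and HBZ at high level, and day 35 clones expressed adult beta globin in their place. HBE1, the embryonic beta-like globin (chromosome 9, 4818206 to 4820243, build Sscrofa11.1), had 9.69, 30.4 and 9.4 CPM at day 35, against 729, 1734 and 1447 CPM at day 30. HBZ, the embryonic alpha-like globin (chromosome 3, 41490758 to 41492883), had 5.37, 15.8 and 16 CPM at day 35, against 483, 1064 and 670.2 CPM at day 30. For both genes every day 30 library lay far above every day 35 library. The log2 fold changes, here and below day 35 over day 30 with their standard error (SE), were -6.33 ± 0.53 for HBE1 and -5.96 ± 0.45 for HBZ (adjusted p = 0.00144 each). HBB, beta globin (chromosome 9, 4800683 to 4801941), had 1303, 2357 and 2775 CPM at day 35, against 62.6, 92.3 and 538 CPM at day 30. The libraries did not overlap, day 30 replicate 3 being the highest of its day, and the log2 fold change was 3.19 ± 0.78 (adjusted p = 0.0141). That call ended when day 30 replicate 2 was left out.

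Globin levels can be set side by side per transcript length, in TPM, the length-scaled unit of the deposited tables. HBE1 and HBZ together made up 1.02%, 1.73% and 0.75% of the TPM of HBE1, HBZ and HBB at day 35, against 94.5%, 96.4% and 78.1% at day 30. The embryonic globin gene that was not called is not part of this share. Day 30 replicate 3, with the lowest share of HBE1 and HBZ of its day, was still far above any day 35 library. The globin genes are close copies of each other, and the counting could split reads between them, which was not tested.

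Genes of the red cell precursor and its membrane were mostly lower at day 35. Of 18 tested red cell genes 10 were lower, 4 higher, HBB among them, and 4 not called (median log2 fold change -0.86). With all 14 fetus libraries 6 were lower and 2 higher. The summed level, which includes HBB, went the other way. It was 1877, 2940.2 and 3372 CPM at day 35, against 846, 969 and 1395 CPM at day 30. With an offset for record length, described below, 10 were lower and 2 higher. SLC4A1, the chloride and bicarbonate exchanger band 3, had 0.692, 2.43 and 2.35 CPM at day 35, against 18.7, 36.5 and 31.4 CPM at day 30 (-4.04 ± 0.43, adjusted p = 0.00158). Day 30 replicate 1 was the lowest of its day and still above all day 35 libraries. NFE2, an erythroid transcription factor, and EPB42, a membrane skeleton protein, fell by 3 and 2.32 on the log2 scale. SPTB, the beta spectrin also found in muscle and brain, rose, with 118, 74.9 and 56.4 CPM at day 35, against 23.7, 37.4 and 36.4 CPM at day 30. GATA1, the master regulator of erythroid genes, was too low to be tested, at 0.173, 0.405 and 0.235 CPM at day 35, against 1.25, 1.25 and 1.52 CPM at day 30.

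**Figure D2:**
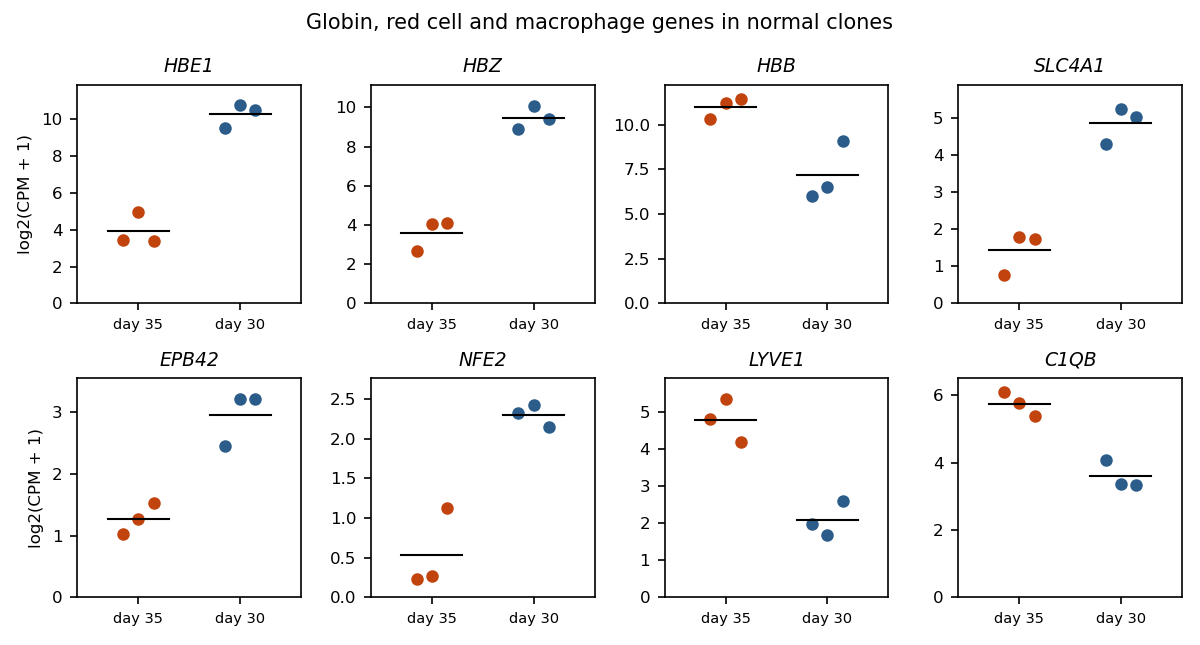
Level of globin, red cell and macrophage genes in each normal clone library, as log2(CPM + 1), with day 35 at the left and day 30 at the right of each panel; points are libraries and lines are means of 3. HBE1, HBZ, SLC4A1, EPB42 and NFE2 were higher in every day 30 library, and HBB, LYVE1 and C1QB in every day 35 library.

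Macrophage genes were higher at day 35 in 14 of 17 tested and lower in 0 (median 1.49). Their summed level was 322 to 468 CPM at day 35, against 149.6 to 178 CPM at day 30. LYVE1, a hyaluronan receptor of tissue macrophages and lymphatic vessels, had 27.2, 40.1 and 17.4 CPM at day 35, against 2.99, 2.19 and 5.11 CPM at day 30 (3.02 ± 0.40, adjusted p = 0.00205). C1QB, a chain of complement C1q made by macrophages, had 66.6, 53.2 and 40.9 CPM at day 35, against 15.7, 9.39 and 9.09 CPM at day 30 (2.23 ± 0.26, adjusted p = 0.00161). No library of the days overlapped in either gene. TYROBP, an adaptor of myeloid receptors, rose by 2.69 on the log2 scale, and the scavenger receptor CD163 by 2.26. Of 18 matched genes of lymphocytes and granulocytes only 2 were expressed enough to be tested, and 5 were at 0 in all 6 libraries. KIT, the stem cell factor receptor of blood progenitors, germ cells and mast cells, rose by 1.31. With all 14 fetus libraries in the fit 8 macrophage genes were called higher, and the call of CD163 ended.

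Vessel genes moved less. Of 16 endothelial genes 8 were higher and 1 lower (median 0.35), and with all 14 fetus libraries 0 of them were called. CLEC14A, an endothelial surface lectin, had 36.7, 46.8 and 36.4 CPM at day 35, against 14, 15.3 and 15.3 CPM at day 30 (1.40 ± 0.15, adjusted p = 0.00158). CLDN5, a claudin of endothelial junctions, had 149.5, 132 and 122 CPM at day 35, against 68.9, 62.3 and 85.4 CPM at day 30, a call that also ended with the 10 libraries of clones and NF fetuses. PECAM1, the adhesion molecule of all endothelium, changed by 0.34 ± 0.08 (adjusted p = 0.0148), a call that ended in 7 alternatives. ERG, an endothelial factor, went the other way, with 36.9, 42.9 and 58.1 CPM at day 35, against 72.9, 88.9 and 72.2 CPM at day 30. It changed by -0.80 ± 0.18 (adjusted p = 0.00975), a call that ended with all 14 fetus libraries. Smooth muscle and pericyte genes were higher in 7 of 11 and lower in 0 (median 1.24), with 2 called higher with all 14 fetus libraries. CNN1, the calponin of contractile smooth muscle, had 77.5, 78.5 and 39.7 CPM at day 35, against 14, 13.3 and 15 CPM at day 30 (2.19 ± 0.26, adjusted p = 0.00166). KCNJ8, the pericyte potassium channel, rose by 1.62. DES, the intermediate filament of all muscle, had 656, 389 and 451 CPM at day 35, against 144, 142 and 217 CPM at day 30, a call that ended with all 14 fetus libraries.

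Genes of cell division were lower at day 35 almost throughout. Of 32 mitosis genes 29 were lower and 0 higher (median -0.81), and of 26 DNA replication genes 19 were lower and 0 higher (median -0.60). The summed level of the mitosis genes was 2289, 2696 and 2803 CPM at day 35, against 4880.1, 5607 and 4961 CPM at day 30, and that of the replication genes was 1878, 1958 and 2161 CPM at day 35, against 3106, 3351 and 2988 CPM at day 30. All day 35 sums lay below all day 30 sums.

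CENPF, a kinetochore protein, had 168, 202 and 227 CPM at day 35, against 582, 718 and 572 CPM at day 30 (-1.67 ± 0.14, adjusted p = 0.00144). TOP2A, the topoisomerase that untangles chromosomes, had 375, 476 and 500.5 CPM at day 35, against 1173, 1345 and 1178 CPM at day 30 (-1.48 ± 0.12, adjusted p = 0.00144). KIF11 and KIF20B, kinesin motors of the spindle and of cytokinesis, fell by 1.24 and 1.08 on the log2 scale, and CDK1, the mitotic kinase, by 0.46. Among replication genes, UHRF1, which carries DNA methylation through replication, had 199, 234 and 292 CPM at day 35, against 559, 672 and 545 CPM at day 30 (-1.32 ± 0.15, adjusted p = 0.00161). ORC1 and CDC6, which license replication origins, fell by 1.13 and 0.94, and RFC1, a subunit of the clamp loader, by 0.89. MKI67, the usual proliferation marker, was listed at 0 in all 6 libraries and carries no information here. With all 14 fetus libraries the medians were -0.79 for mitosis and -0.57 for replication, but only 1 and 5 genes were called lower, and the calls of the genes named here ended except for RFC1. The call of CDK1 also ended without day 30 replicate 2.

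Of 12 genes of cell cycle exit 3 were higher and 2 lower (median 0.11). CCND3, the cyclin D of differentiating cells, had 55, 55.7 and 66.5 CPM at day 35, against 37.7, 38.5 and 37.1 CPM at day 30. In the list of LIN28 targets and oncofetal genes, which mark early growth and are shut down later, 10 of 18 were lower and 1 higher (median -0.56), and with all 14 fetus libraries 3 were lower and 0 higher. HMGA2, a chromatin protein of embryonic growth, had 40.7, 77.5 and 193 CPM at day 35, against 669.8, 715 and 519.8 CPM at day 30 (-2.65 ± 0.49, adjusted p = 0.00518). The day 35 libraries differed widely among themselves and none reached the day 30 range. IGF2BP1, a fetal RNA-binding protein, had 28.7, 39.3 and 52 CPM at day 35, against 124, 128 and 89.6 CPM at day 30 (-1.54 ± 0.23, adjusted p = 0.00254). MYCN, the Myc factor of early neural and limb progenitors, fell by 0.92. MYC itself was the member that rose, by 0.54, a call that ended with the 10 libraries of normal clones and NF fetuses and with all 14. LIN28A was at 0.25 CPM in day 30 replicate 1 and 0 in the other normal clone libraries.

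Calls varied with transcript length. Among the 2268 genes with the shortest matched records, 282 to 1547 bases, 25.2% of genes were higher and 7.85% lower at day 35. Among the 2267 genes with the longest, 3570 to 40106 bases, 15.6% were higher and 33% lower, and the median log2 fold change was 0.16 for the short and -0.18 for the long genes. With an offset for record length, an alternative chosen after this trend was seen, 3595 genes were called and 3621 of the 3635 kept their sign. Under it 28 mitosis and 21 replication genes were lower, 32 sarcomere genes were higher, and 14 macrophage genes were higher. It moved a count of called members in 1 direction by more than 1.5 times in the lists of red cell, cartilage, oxidative phosphorylation, ribosomal protein, p53 and cholesterol genes, and the counts under it are given with each.

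**Figure D3:**
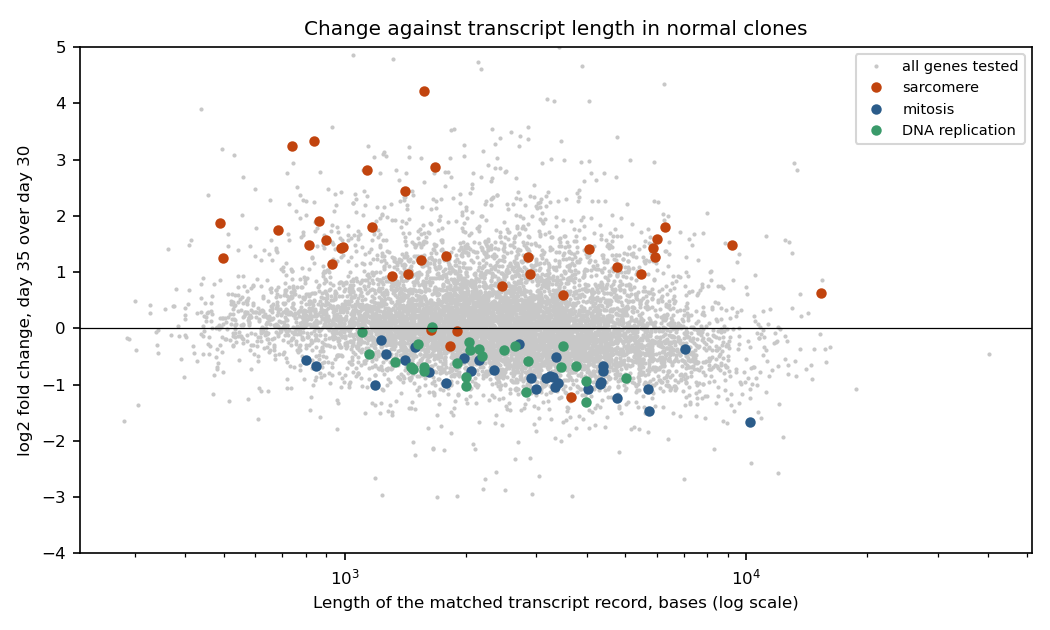
Log2 fold change of day 35 over day 30 in normal clones (vertical axis) against the length of the matched transcript record in bases (horizontal axis, logarithmic); grey points are all genes tested and coloured points are sarcomere, mitosis and DNA replication genes. Sarcomere genes lie mostly above 0 and mitosis genes below 0 at all lengths, while the grey points slope from a median of 0.16 in the shortest records to -0.18 in the longest; 17 genes lie outside the vertical range.

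Skeletal muscle genes were mostly higher at day 35. Of 37 genes of the sarcomere and of fibre metabolism 32 were higher at day 35 and 2 lower (median 1.41), and with all 14 fetus libraries 9 were called higher and 0 lower. Their summed level was 8298, 5501 and 6002 CPM at day 35, against 3071, 3416 and 4072 CPM at day 30, with day 35 replicate 1 the highest. CKM, muscle creatine kinase, had 41.4, 15.2 and 16 CPM at day 35, against 0.499, 0.939 and 2.27 CPM at day 30 (4.21 ± 0.59, adjusted p = 0.00226). TNNT3, the troponin T of fast fibres, had 115, 59.3 and 71.9 CPM at day 35, against 6.99, 6.26 and 10.8 CPM at day 30 (3.34 ± 0.31, adjusted p = 0.00144). ACTA1, skeletal alpha actin, had 459.9, 159 and 246 CPM at day 35, against 31.4, 27.5 and 57 CPM at day 30 (2.87 ± 0.43, adjusted p = 0.00262). The days did not overlap in any of these, day 35 replicate 1 being the highest library each time.

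MYL3, the slow myosin light chain shared with ventricle, rose by 3.24 on the log2 scale, and MYLPF, the fast regulatory light chain, by 1.75. MYH7, the slow and cardiac myosin heavy chain, had 369, 137 and 163 CPM at day 35, against 58.6, 66.6 and 92 CPM at day 30. Its call ended without day 30 replicate 2 and with all 14 fetus libraries, and that of MYLPF ended with all 14. Myosin, actin and troponin genes have close paralogs whose reads the counting could split.

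Of 14 regulators of muscle formation 6 were higher and 2 lower (median 0.41), and with all 14 fetus libraries 1 was called in each direction. MYF6, the myogenic factor of late fibres, had 11.9, 9.11 and 7.99 CPM at day 35, against 2.5, 2.35 and 2.65 CPM at day 30 (1.93 ± 0.28, adjusted p = 0.00237). MYOG, which drives fusion and differentiation, had 114, 95.5 and 107 CPM at day 35, against 61.1, 60.2 and 73.7 CPM at day 30 (0.67 ± 0.11, adjusted p = 0.00375), and its call ended with the 10 libraries of clones and NF fetuses and with all 14. MYOD1, which commits cells to muscle, had 70.3, 51.8 and 84.6 CPM at day 35, against 49.9, 50.2 and 54.7 CPM at day 30, and was not called (0.39 ± 0.17, adjusted p = 0.0989). SIX4, a factor of muscle progenitors, fell by 1.39.

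Of 9 heart genes 4 were higher and 2 lower (median 0.34), and the members that rose are partly shared with skeletal muscle. With the length offset the counts were the same and the median was 0.15. MYL2, the ventricular and slow muscle light chain, had 221, 92.3 and 110.5 CPM at day 35, against 15.5, 12.7 and 26.1 CPM at day 30 (2.94 ± 0.39, adjusted p = 0.00204). MYL4, the atrial and fetal muscle light chain, and ACTC1, cardiac actin that fetal skeletal muscle also makes, rose by 2.07 and 1.11, and both calls ended with all 14 fetus libraries. HAND1, a factor of heart and sympathetic precursors, had 3.29, 3.24 and 3.06 CPM at day 35, against 0.25, 0.469 and 0 CPM at day 30. The heart factors HAND2 and TBX5, described below with the limb genes, went the other way, falling by 1.37 and 1.56 on the log2 scale. NKX2-5, the defining factor of heart muscle, was at 0, 0.202 and 0.235 CPM at day 35 and at 0, 0.156 and 0 CPM at day 30, where 3 counts over a group correspond to 0.2 and 0.191 CPM.

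Genes of neurons and their synapses were called higher or not called, none lower. Of 25 synapse and channel genes 17 were higher and 0 lower (median 1.04), of 19 neuron genes 9 were higher and 0 lower (median 0.55), and of 17 progenitor genes 4 were higher and 2 lower (median 0.24). With the length offset 12 neuron and 6 progenitor genes were higher. The lists were not compared with each other by a test. Summed synapse and channel genes came to 1923, 1287 and 1196 CPM at day 35, against 683, 612 and 789 CPM at day 30. SYN1, which tethers synaptic vesicles, had 92.9, 48.4 and 43 CPM at day 35, against 9.73, 10.2 and 13.8 CPM at day 30 (2.43 ± 0.32, adjusted p = 0.00199). PRPH, the peripheral neuron filament, had 646, 311 and 284 CPM at day 35, against 88.3, 86 and 81.6 CPM at day 30 (2.25 ± 0.30, adjusted p = 0.00204). GAD1, which makes the inhibitory transmitter GABA, had 48.1, 37.9 and 27.7 CPM at day 35, against 9.23, 8.13 and 11.2 CPM at day 30 (1.97 ± 0.23, adjusted p = 0.00166). Day 35 replicate 1 was the highest in all 3 genes, as in the muscle genes, and every day 35 library lay above the day 30 range.

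SLC17A6, the vesicular transporter of glutamate, rose by 1.83 on the log2 scale, SCN3B, a sodium channel subunit, by 2.2, and the granule proteins SCG2 and CHGB by 2.37 and 1.62. GAP43, a protein of growing axons, had 637, 313 and 299 CPM at day 35, against 177, 153 and 191 CPM at day 30. SNCB, beta-synuclein of nerve endings, had 22.2, 8.91 and 7.76 CPM at day 35, against 0, 0.313 and 0.947 CPM at day 30 (4.78 ± 0.74, adjusted p = 0.00287). With so few counts at day 30, SNCB passed the count filter through day 35. The filament NEFL changed by 0.66 ± 0.20 (adjusted p = 0.0321), a call that ended in 5 alternatives. DCX of migrating neurons (-0.11 ± 0.19, adjusted p = 0.666), the filament NEFM (0.20 ± 0.24, adjusted p = 0.548) and the vesicle calcium sensor SYT1 (1.64 ± 0.68, adjusted p = 0.0864) were not called. With all 14 fetus libraries 7 synapse and 4 neuron genes were called, and the calls of SLC17A6, SCN3B and CHGB ended.

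Glial genes were higher in 6 of 11 and lower in 0 (median 1.74), with 3 called higher with all 14 fetus libraries. OLIG1, a factor of oligodendrocyte precursors, had 15.1, 7.69 and 7.52 CPM at day 35, against 0.749, 0.626 and 1.14 CPM at day 30 (3.54 ± 0.45, adjusted p = 0.00175). MBP, the basic protein of myelin, had 28.4, 15 and 8.46 CPM at day 35, against 0.749, 1.41 and 2.08 CPM at day 30 (3.54 ± 0.54, adjusted p = 0.00271). AQP4, the astrocyte water channel, had 2.77, 4.25 and 3.06 CPM at day 35, against 0, 0 and 0.758 CPM at day 30, and its call ended without day 30 replicate 2 and with all 14 fetus libraries. FABP7, the fatty acid carrier of radial glia, had 448, 227 and 211 CPM at day 35, against 58.1, 50.7 and 72.5 CPM at day 30 (2.27 ± 0.30, adjusted p = 0.00202). SLC1A3, the glutamate uptake transporter of radial glia, rose by 1.22, a call that ended without day 30 replicate 2. SOX2, the neural stem cell factor, had 37.4, 41.5 and 31.7 CPM at day 35, against 34.7, 30.2 and 31.1 CPM at day 30, and was not called (0.19 ± 0.14, adjusted p = 0.31).

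Limb patterning genes tended lower at day 35. Of 21 tested 11 were called lower and 0 higher (median -0.93), and 4 were called lower with all 14 fetus libraries. SHOX2, a homeobox factor of the upper limb segment, had 24.8, 54.7 and 101 CPM at day 35, against 237, 259 and 215 CPM at day 30 (-2.02 ± 0.41, adjusted p = 0.00722). TBX18, a factor of somite and limb mesenchyme, had 28, 39.1 and 83.2 CPM at day 35, against 160.5, 182 and 154 CPM at day 30 (-1.76 ± 0.35, adjusted p = 0.00652). TBX5, the forelimb and heart T-box factor, had 13, 13 and 17.2 CPM at day 35, against 36.4, 48.7 and 39.2 CPM at day 30 (-1.56 ± 0.18, adjusted p = 0.00158). In these genes no day 35 library reached the day 30 range. LHX9, a limb bud and gonad homeobox factor, was not on the list and was placed here after its values were seen. LHX9 had 4.33, 3.85 and 12 CPM at day 35, against 40.9, 46.8 and 32.2 CPM at day 30. Day 35 replicate 3 was the highest of its day in these limb genes and nearest to day 30. HAND2, of the posterior limb margin and heart, and WNT5A, the ligand that elongates the limb, fell by 1.37 and 1.38 on the log2 scale. The calls of SHOX2 and HAND2 ended with all 14 fetus libraries. The limb bud factors LHX2 and TBX4 fell by 2.16 and 2.15. Each of these 2 calls ended in 8 alternatives, single libraries left out among them.

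HOX genes, which give cells their position along the trunk and limbs, did not move as a whole. Of 8 of the anterior group 1 was lower and 0 higher. Among 10 of the middle group 4 were higher, namely HOXB5, HOXB6, HOXB7 and HOXB8, and 3 lower, namely HOXA5, HOXA6 and HOXA9. Among 7 of the posterior group HOXB13, HOXC12 and HOXC13 were higher and HOXA11, HOXA13 and HOXD13 lower. HOXB8 had 82.9, 50.8 and 51 CPM at day 35, against 15.5, 14.1 and 17.2 CPM at day 30 (1.96 ± 0.22, adjusted p = 0.00158). HOXA6 had 223, 232 and 331 CPM at day 35, against 618, 531 and 537 CPM at day 30 (-1.13 ± 0.16, adjusted p = 0.00231). HOXD13, the factor of the digits, had 35.8, 51 and 99.9 CPM at day 35, against 173, 207 and 206 CPM at day 30 (-1.69 ± 0.33, adjusted p = 0.00613). HOXB13 rose by 1.8 and HOXA9 fell by 1.03. Among these 13 genes only HOXB8, HOXA9 and HOXB13 were also called with all 14 fetus libraries. The call of HOXA13 (-1.12 ± 0.38, adjusted p = 0.0469) ended in 8 alternatives, that of HOXC13 (0.86 ± 0.24, adjusted p = 0.0237) in 6, that of HOXC12 (0.91 ± 0.26, adjusted p = 0.0251) in 5 and that of HOXA11 (-0.86 ± 0.21, adjusted p = 0.0136) in 3, single libraries left out among them in each case. Those of HOXB7 and HOXD13 also ended with the 10 libraries of clones and NF fetuses. The called HOXB and HOXC genes were thus higher and the called HOXA and HOXD genes lower, a division noticed after the values were seen and not tested.

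Cartilage genes were lower in 5 of 13 and higher in 1 (median -0.63), with 1 lower and 0 higher with all 14 fetus libraries and 3 lower and 0 higher with the length offset. SOX9, the factor that founds cartilage, had 20.6, 19.6 and 35 CPM at day 35, against 97.6, 102 and 65 CPM at day 30 (-1.85 ± 0.26, adjusted p = 0.00226). COL11A1, a minor cartilage collagen, had 515, 464 and 649 CPM at day 35, against 974, 912 and 972 CPM at day 30. ACAN, the aggrecan of cartilage matrix, had 70.6, 29.6 and 66.8 CPM at day 35, against 77.6, 74.3 and 79.3 CPM at day 30, and was not called (-0.49 ± 0.28, adjusted p = 0.186). GDF5, the ligand of forming joints, had 5.19, 2.63 and 14.3 CPM at day 35, against 26.7, 36.8 and 37.5 CPM at day 30, and its call, like that of COL11A1, ended with all 14 fetus libraries.

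Of 11 bone genes 2 were higher and 1 lower (median -0.15), no more than among all genes, and 8 were not called. Of 8 tendon and joint genes 2 were called in each direction (median -0.05). RUNX2, the factor of bone commitment, had 14.2, 27.1 and 24.9 CPM at day 35, against 58.6, 61 and 50.2 CPM at day 30 (-1.39 ± 0.23, adjusted p = 0.00367). SPP1, osteopontin of mineralizing tissue and macrophages, had 365, 609 and 255 CPM at day 35, against 35.4, 37.1 and 56.1 CPM at day 30 (3.23 ± 0.34, adjusted p = 0.00147). SPARC, a bone and connective tissue matrix protein, rose by 0.69. TNMD, tenomodulin of tendon, had 127, 103 and 86.7 CPM at day 35, against 19.5, 21.7 and 26.9 CPM at day 30 (2.19 ± 0.17, adjusted p = 0.00144).

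Connective tissue matrix genes were higher in 18 of 29 and lower in 3 (median 0.75). MFAP5, a protein of elastic microfibrils, had 64.2, 71.1 and 40.4 CPM at day 35, against 1.75, 1.1 and 1.33 CPM at day 30 (5.39 ± 0.31, adjusted p = 0.00115). ASPN, a small proteoglycan of tendon and perichondrium, had 337, 340.5 and 272 CPM at day 35, against 15.5, 19.4 and 51.3 CPM at day 30 (3.43 ± 0.39, adjusted p = 0.00158). DPT, dermatopontin of dermis, had 223, 174 and 109 CPM at day 35, against 17, 27.1 and 27.6 CPM at day 30 (2.78 ± 0.28, adjusted p = 0.00146). In all of these the lowest day 35 library was far above the highest day 30 library. FMOD and DCN, proteoglycans that space collagen fibrils, rose by 1.72 and 1.5 on the log2 scale, whereas their relative LUM was not called (-0.05 ± 0.22, adjusted p = 0.865). VCAN, the large proteoglycan of loose embryonic mesenchyme, had 788, 1204 and 1145 CPM at day 35, against 2239, 2466 and 2244 CPM at day 30 (-1.17 ± 0.16, adjusted p = 0.00204), and EFEMP1, a fibulin, fell by 0.91. With all 14 fetus libraries 9 matrix genes were called higher and 1 lower, and the calls of DCN and EFEMP1 ended. That of VCAN ended with records matched with their version.

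Several epithelial genes changed by large folds. Of 24 epidermis and surface epithelium genes 9 were higher and 2 lower (median 0.39), and with all 14 fetus libraries 4 were higher and 1 lower. KRT4, a keratin of stratified wet epithelia such as the oesophagus, had 281, 517 and 33.1 CPM at day 35, against 0.499, 0.939 and 0.379 CPM at day 30 (8.69 ± 1.31, adjusted p = 0.00267). Day 35 replicate 3 was the lowest of its day, and the libraries spread widely. The separation of the days was a condition of naming KRT4. Its day 30 level was close to 0, so it passed the count filter through day 35. KRT5, the basal layer keratin, had 131, 249 and 77.3 CPM at day 35, against 14.5, 21.9 and 36.5 CPM at day 30 (2.61 ± 0.46, adjusted p = 0.00463). KRT1, the keratin of the layers above, and OVOL1, a factor of epidermal differentiation, rose by 2.85 and 2.12 on the log2 scale at levels under 9 CPM. DSG2, the desmosomal cadherin of simple epithelia and early skin, had 9.35, 13.4 and 12 CPM at day 35, against 37.7, 40.4 and 27.3 CPM at day 30.

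Of 8 tested genes on the list for lung, gut and pancreas 3 were higher, among them VIL1 and FOXA2, and 0 lower (median 0.48), with 1 higher with all 14 fetus libraries, and 6 of the 20 matched genes were at 0 in all 6 libraries. The other genes of this paragraph were not on that list and were brought together after their values were seen. HNF4A, a factor of liver, gut and kidney tubule, had 25.4, 18.6 and 11.8 CPM at day 35, against 0.499, 0.469 and 1.14 CPM at day 30 (4.66 ± 0.45, adjusted p = 0.00144). CDH17, the intestinal cadherin, had 12.8, 16.4 and 4.47 CPM at day 35, against 0.499, 0.156 and 0.379 CPM at day 30 (log2 fold change of 5, SE 0.67, adjusted p = 0.00204). VIL1, villin of the brush border, had 11.6, 13 and 4 CPM at day 35, against 0, 0 and 0.379 CPM at day 30 (5.96 ± 0.89, adjusted p = 0.00238). All day 35 libraries were above all day 30 libraries in these genes, which was a condition of naming them among the largest changes. Their day 30 levels were close to 0, so they passed the count filter through day 35. TSPAN1, an epithelial tetraspanin, had 16.6, 16.8 and 4.23 CPM at day 35, against 0, 0.313 and 0.379 CPM at day 30. LGALS2, a galectin of gut epithelium, had 15.1, 10.3 and 3.29 CPM at day 35, against 0 in all day 30 libraries, which is at least 50-fold higher if day 30 is set to the floor of 3 counts over its libraries. Day 35 replicate 3 was the lowest of its day in each of these genes and in KRT4. FOXA2, a gut and floor plate factor, had 7.62, 7.09 and 3.76 CPM at day 35, against 2, 0.939 and 2.27 CPM at day 30, and its call ended without day 30 replicate 2, with the 10 libraries of clones and NF fetuses and with all 14.

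Of 6 tested liver genes 3 were higher and 0 lower (median 0.82), and 1 was called with all 14 fetus libraries. APOA1, the main protein of high-density lipoprotein, had 211, 204 and 157 CPM at day 35, against 91.1, 71.2 and 98.1 CPM at day 30 (1.11 ± 0.15, adjusted p = 0.00221). CPS1, the first enzyme of the urea cycle, had 62, 66 and 49.6 CPM at day 35, against 21.2, 23.3 and 37.3 CPM at day 30 (1.09 ± 0.22, adjusted p = 0.00678), and HNF4A was the third. The calls of APOA1 and CPS1 ended with all 14 fetus libraries, and no day 35 library of either overlapped with day 30. The plasma proteins ALB and AFP were low. ALB, albumin, had 5.37, 5.67 and 1.88 CPM at day 35, against 2.99, 3.44 and 2.27 CPM at day 30 (0.55 ± 0.45, adjusted p = 0.352), and AFP, the main fetal liver plasma protein, did not exceed 2.25 CPM in any normal clone library. Of 8 kidney genes 3 were higher and 1 lower (median 0.73). PAX2, a factor of kidney ducts and of the eye and hindbrain, had 72, 58.3 and 53.4 CPM at day 35, against 17, 15.3 and 23.1 CPM at day 30 (1.71 ± 0.18, adjusted p = 0.00158). LHX1, of kidney vesicles and spinal interneurons, and SLC22A6, the anion transporter of the proximal tubule, rose by 0.9 and 2.12 on the log2 scale, and both calls ended with all 14 fetus libraries.

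**Figure D4:**
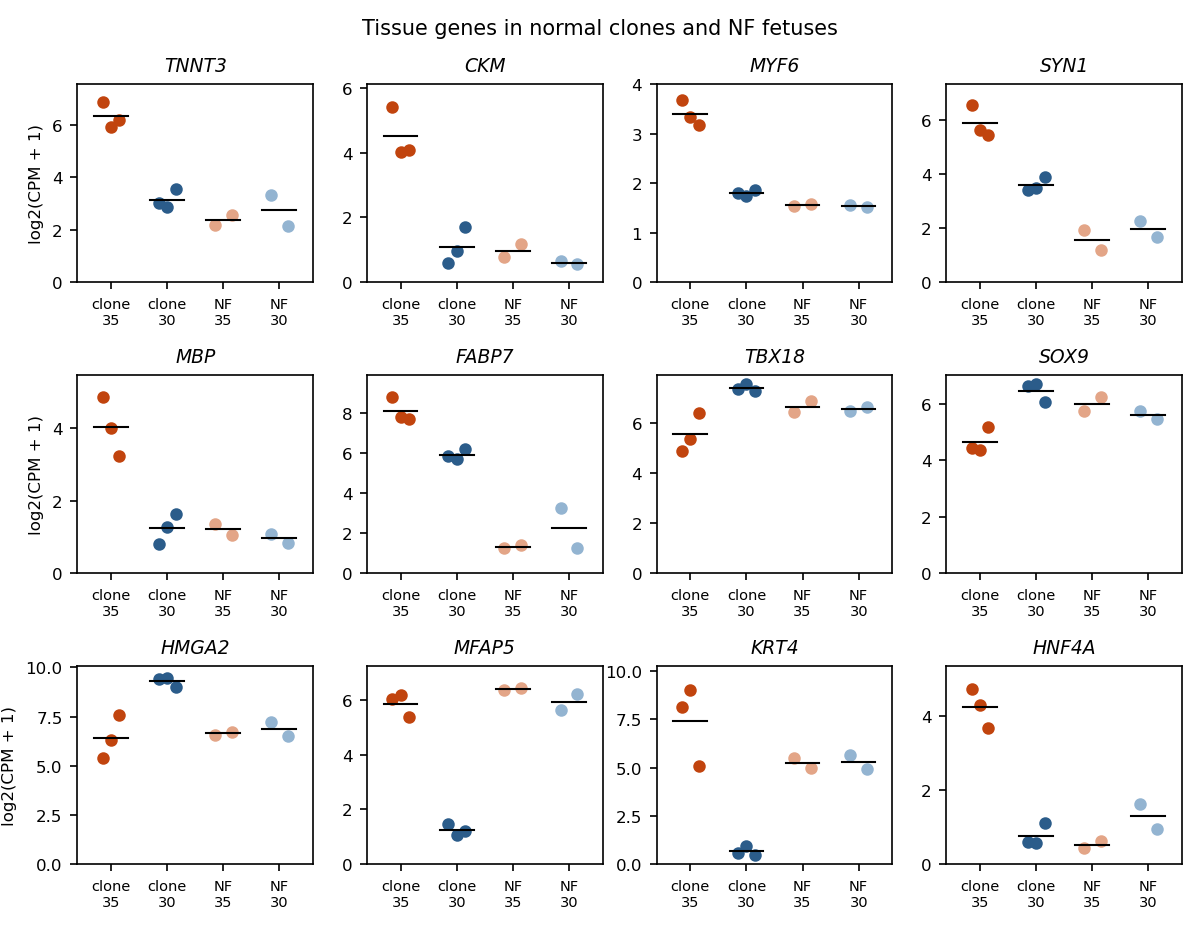
Level of 12 genes of muscle, nerve, glia, limb, cartilage, matrix and epithelium in each library, as log2(CPM + 1): normal clones at day 35 and day 30, then NF fetuses at day 35 and day 30. Points are libraries (3 per clone group, 2 per NF group) and lines are means. In clones each gene separates day 35 from day 30, which for the largest changes was a condition of being named. In NF fetuses MFAP5, with 47.9 and 73.3 CPM, and KRT4, with 49.1 and 29.8 CPM, are already high at day 30.

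Signalling genes were called in both directions at shares near those of all genes. Of 36 genes of the TGF-beta and BMP families 9 (25%) were lower and 7 (19.4%) higher (median -0.13). The receptors below were picked among those that fell, and the other receptors of the list are not described. TGFBR1, the type I TGF-beta receptor, had 165, 177 and 174 CPM at day 35, against 386, 381 and 328 CPM at day 30 (-1.11 ± 0.09, adjusted p = 0.00144). ACVR2B, an activin and myostatin receptor, and BMPR1B, a BMP receptor of cartilage, fell by 1.78 and 1.15 on the log2 scale. CHRD, the BMP antagonist chordin, had 70.8, 68 and 61.4 CPM at day 35, against 25, 28 and 38.8 CPM at day 30 (1.10 ± 0.16, adjusted p = 0.00258). INHBB, an activin subunit, rose by 2.08, a call that ended without day 30 replicate 2.

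Of 28 WNT pathway genes 7 (25%) were lower and 6 (21.4%) higher (median 0.02), also near the shares of all genes. With all 14 fetus libraries 5 TGF-beta and BMP genes were lower and 2 higher, and 1 WNT pathway gene was called in each direction. FZD3, a receptor of axon guidance and planar polarity, and LEF1, a nuclear effector, fell by 1.31 and 0.82, calls that ended with all 14 fetus libraries. DKK3, a secreted relative of WNT antagonists, had 243, 153 and 156 CPM at day 35, against 83.9, 85.9 and 90.7 CPM at day 30, and its call ended with records matched with their version.

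In the insulin-like growth factor axis 6 of 13 genes were higher and 3 lower (median 0.22), and with all 14 fetus libraries 3 were higher and 1 lower. IGF1R, the receptor, had 64.7, 87.2 and 104 CPM at day 35, against 211, 239 and 192 CPM at day 30 (-1.36 ± 0.17, adjusted p = 0.00191). The binding proteins IGFBP6 and IGFBP7 rose by 1.33 and 0.91, the call of IGFBP7 ending with all 14 fetus libraries. IGF2, the imprinted fetal ligand, had 833, 464 and 822 CPM at day 35, against 385, 388 and 386 CPM at day 30 (0.85 ± 0.20, adjusted p = 0.0132), a call that ended without day 30 replicate 2. IGF1 was not called (0.03 ± 0.31, adjusted p = 0.95). Of 21 imprinted genes, which are expressed from a single parental copy, 4 were higher and 0 lower (median 0.21). PHLDA2, a growth-restraining imprinted gene, had 22.5, 21.1 and 20.2 CPM at day 35, against 6.49, 6.26 and 6.44 CPM at day 30 (1.71 ± 0.17, adjusted p = 0.00144). DLK1, an imprinted inhibitor of adipocyte differentiation, changed by 1.27 ± 0.36 (adjusted p = 0.0263), a call that ended in 6 alternatives.

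Of 11 fat cell and lipid genes 4 were higher and 3 lower (median 0.01), and the regulators of adipocyte fate differed in direction. PPARG had 4.5, 5.26 and 3.29 CPM at day 35, against 0.499, 0.626 and 0.379 CPM at day 30 (3.02 ± 0.43, adjusted p = 0.00226). EBF2, a factor of brown adipocyte precursors, had 48.6, 69.6 and 79.5 CPM at day 35, against 111, 105 and 111 CPM at day 30 (-0.75 ± 0.17, adjusted p = 0.0106), a call that ended with all 14 fetus libraries. CEBPA rose by 1.7, and CFD, the adipocyte protease adipsin that macrophages can also make, by 2.44. Of 19 genes of cholesterol metabolism 6 were higher and 2 lower (median 0.21), with all 14 fetus libraries 1 was higher and 0 lower, and with the length offset 6 were higher and 1 lower.

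Of 26 glycolysis genes 4 were higher and 4 lower (median -0.06), and ENO2, the neuronal enolase, had 325, 172 and 182 CPM at day 35, against 88.3, 74.8 and 106 CPM at day 30, a call that ended with all 14 fetus libraries. Of 63 ribosomal protein genes 17 were higher and 0 lower (median 0.15), but with the length offset 6 were higher and 12 lower (median -0.04), so that no direction is given. Of 32 genes of oxidative phosphorylation 5 were higher and 0 lower, NDUFS7 of complex I by 0.55, and with the length offset 3 were higher and 3 lower. Of 24 stress and immediate early genes 13 (54.2%) were higher and 5 (20.8%) lower (median 0.42), with the length offset 11 were higher and 7 lower (median 0.29), and with all 14 fetus libraries 1 was higher. The summed level of the matched members was 6097 to 6598 CPM at day 35, against 6686 to 6989.6 CPM at day 30. KLF4 had 63, 74.9 and 106 CPM at day 35, against 31.9, 31.6 and 31.6 CPM at day 30 (1.33 ± 0.19, adjusted p = 0.00237), and ATF3, a stress-induced factor, rose by 1, a call that ended with all 14. The heat shock genes HSPH1, HSP90B1 and HSPA8 went the other way, falling by 0.54, 0.41 and 0.34, calls that also ended with all 14. Of 15 p53 targets 2 were higher and 3 lower (median -0.17), and with the length offset 2 were higher and 6 lower (median -0.26). The part that stress of the tissue has in the other results was not tested.

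Other large changes were in genes of no list. The matched records of SRSF11, a splicing factor, had 28.2, 8.7 and 8.46 CPM at day 35, against 0 in all day 30 libraries. That is at least 79.1-fold higher on the same floor for these records. Whether its unmatched records changed was not tested. DYSF, the membrane repair protein of muscle, had 37.6, 29.2 and 26.6 CPM at day 35, against 3.99, 0 and 1.14 CPM at day 30, a call that ended with all 14 fetus libraries. NFYA, a subunit of the CCAAT-binding factor, had 9, 31 and 14.1 CPM at day 35, against 145, 136 and 128 CPM at day 30 (-2.95 ± 0.36, adjusted p = 0.00174). CBFA2T2, a transcriptional corepressor, FIGN, a microtubule-severing enzyme, and TRIM52, a ubiquitin ligase, fell by 2.31, 2.4 and 2.56 on the log2 scale. The calls of these last genes ended in 2, 9 and 9 alternatives. Only 38.4% of the deposited transcript records could be matched to a gene, so a level covers the matched transcripts of a gene and its other transcripts are not analysed here.

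NF fetuses were set beside the clones to ask whether their day effect was the same. Spearman correlation between normal clone and NF libraries was 0.7986 to 0.8999, below the 0.92 to 0.967 between the days of the clones. The 2 kinds of fetus thus differed more from each other than the days did in clones, for reasons that were not tested. In the NF libraries the sex labels and EIF1AY disagreed at day 30, where replicate 1, labelled male, had 0 CPM and replicate 2, labelled female, had 34.2 CPM, while both day 35 libraries, labelled male, had 32.3 and 27.9 CPM. The day 30 NF libraries also stood apart from each other. Their Spearman correlation was 0.961, whereas day 30 replicate 2 correlated at 0.983 to 0.99 with the day 35 NF libraries and day 30 replicate 1 at 0.952 to 0.963, so that replicate 2 was nearer to day 35 than to the other library of its day. Between day 35 and day 30 NF fetuses 0 of 9660 genes (0%) were called by edgeR, 714 had an unadjusted p under 0.05, and DESeq2 called 11. The 3635 genes called in clones had a median absolute log2 fold change of 0.69 in clones and 0.21 in NF fetuses, and across 9067 genes, which are not independent replicates, the fold changes of the clones and of the NF fetuses correlated at r = -0.06. Without day 30 NF replicate 1 the NF count was 0, the median 0.15 and r -0.02, and without day 30 NF replicate 2, which leaves replicate 1 alone at that day, they were 794, 0.35 and -0.02. The lone library is assumed to vary like the other groups.

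The difference of day effects itself was called in 438 of 9660 genes (4.53%), 250 more positive and 188 more negative in clones. That count rested on single libraries: it was 0 without day 30 normal replicate 2 and 0 without day 35 NF replicate 2, with 1944 and 1982 genes at an unadjusted p under 0.05. It was 2 without day 30 normal replicate 1, 86 without replicate 3, 88 without day 30 NF replicate 1 and 1847 without day 30 NF replicate 2. Without day 35 NF replicate 1 it was 109, and without day 35 normal replicates 1 and 2 it was 41 and 155. With all 14 fetus libraries it was 2.

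Where the difference was called, the NF levels took unlike forms. Matrix genes were already high in NF fetuses at day 30: MFAP5 had 80.4 and 86.3 CPM in day 35 NF fetuses, against 47.9 and 73.3 CPM in day 30 NF fetuses (adjusted p of the difference = 0.00694). ASPN had 226 and 204 CPM in day 35 NF fetuses, against 306 and 311 CPM in day 30 NF fetuses (0.0236). KRT4 had 44.2 and 30.8 CPM in day 35 NF fetuses, against 49.1 and 29.8 CPM in day 30 NF fetuses (0.0288). In each of these genes every NF library of either day lay above the day 30 clones. A nerve, a muscle and a red cell gene were instead low in NF fetuses at both ages. FABP7 had 1.4 and 1.61 CPM in day 35 NF fetuses, against 8.4 and 1.4 CPM in day 30 NF fetuses (0.0465), TNNT3 had 3.5 and 4.83 CPM at day 35, against 8.96 and 3.42 CPM at day 30 (0.0275), and SLC4A1 had 0.524 and 0.358 CPM at day 35, against 0 and 0 CPM at day 30 (0.0341).

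NF fetuses expressed little HBE1 and HBZ at either age. HBE1 and HBZ made up 0.738% and 0.486% of the TPM of the globins at day 35 and 0.249% and 0.642% at day 30. Their HBE1 did not exceed 1.22 CPM, and the difference of day effects was not called for HBE1 (adjusted p = 0.07), HBZ (0.325) or HBB (0.173). Neural genes that rose in clones, and PAX2 of the kidney list, differed in their NF level. GAD1 had 0.35 and 0 CPM in day 35 NF fetuses, against 0.56 and 0.466 CPM in day 30 NF fetuses, and PAX2 had 0.524 and 2.33 CPM at day 35, against 0.98 and 1.09 CPM at day 30. NEFL was higher in NF fetuses than GAD1, with 78.5 and 96.7 CPM at day 35, against 259.7 and 69.1 CPM at day 30. GAP43 had 28.1 and 26.5 CPM in day 35 NF fetuses, against 42.8 and 31.2 CPM in day 30 NF fetuses. Every NF library still lay below every clone library in both genes, as clones had at least 494 CPM of NEFL and 153 CPM of GAP43. SLC1A3 had 16.4 and 15.4 CPM in day 35 NF fetuses, against 26.7 and 15.4 CPM in day 30 NF fetuses, within or near the range of day 30 clones. Clones had at least 27.7 CPM of GAD1 at day 35 and at least 8.13 CPM at day 30, so clone and NF libraries did not overlap at either age in GAD1 either. The part that the sampled region of the body has in the day effects was not tested.

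**Figure D5:**
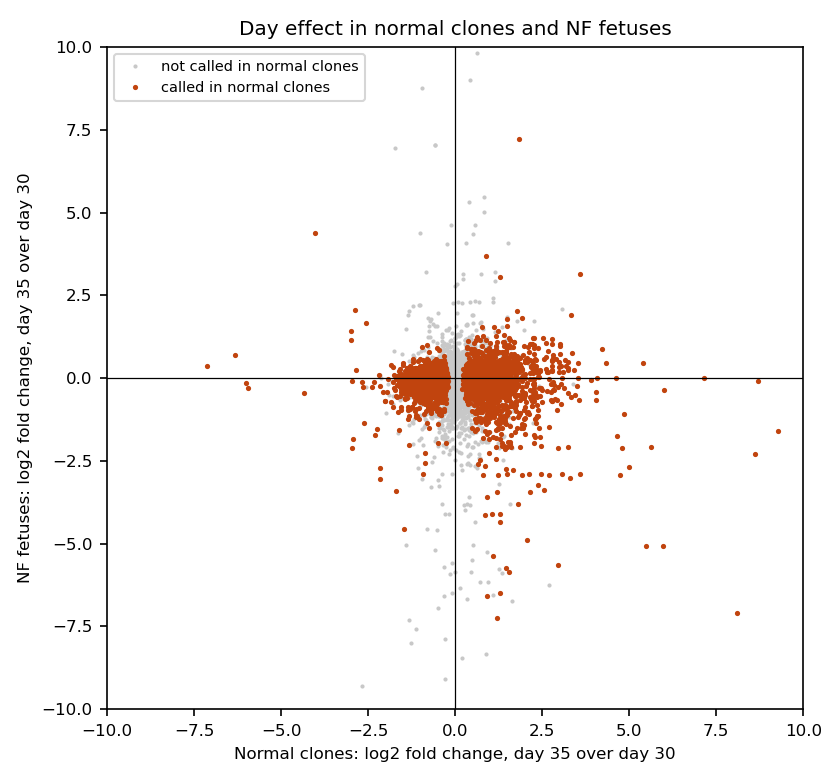
Log2 fold change of day 35 over day 30 in NF fetuses (vertical axis) against that in normal clones (horizontal axis), for 9067 genes; coloured points are the 3635 genes called in clones and grey points the rest. The correlation over all genes plotted was r = -0.06. It was not computed for the coloured points alone, and 2 genes lie outside the axes.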

How the data were processed

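Fetus libraries were made from total RNA with a NEBNext Ultra II RNA kit, per the labels. Quantification by the authors used RSEM 1.2.4 and the pig build Sscrofa11.1 (susScr11), per the submitters' processing notes. The deposited tables give an expected count and a TPM for each of 65927 transcript records, per the file headers. For aligner, read filters and strand setting, the answer is not given in the sources used here, so reads of a gene and of an antisense partner may be mixed.

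Symbols were assigned to records by RefSeq accession without version, 25305 records (38.4%) in 14389 genes, holding 66.6% to 67.8% of the counts of the normal clone libraries. Expected counts were summed per symbol and rounded; edgeR 4.0.16 (R 4.3.3) then applied filterByExpr, TMM factors and the quasi-likelihood test, with Benjamini-Hochberg adjustment at 0.05. The main comparison used the 6 normal clone libraries, and the difference of day effects the 10 libraries of normal clones and NF fetuses. Printed CPM are scaled over those 10 libraries. The biological coefficient of variation was 0.163 with 6 libraries, 0.217 with 10 and 0.29 with 14. Floors are 3 counts over a group and cover counting error only.

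Members, gene lists and tests were chosen with earlier results of these data known. The 42 lists were written by hand and matched by symbol or synonym. Genes named were, by rule, the 12 largest changes per direction without overlap (average log2 CPM 2 or more), up to 4 called members per direction and list, the matched members of a list of marker genes, and the 5 called genes with the largest difference of day effects. Some genes are not reported here, and the text also leaves out genes without a symbol or a clear role and some list members; EIF1AY was chosen outside the rule, as a check of the sex labels. Alternatives were RLE size factors, no filter, a filter at 1 CPM in 3 libraries, DESeq2 1.42.0, limma 3.58.1 on log2(TPM + 1), the 10 or all 14 fetus libraries, replicate number as a block, records matched with version, each library left out, and, added later, an offset for record length and the NF day effect without each NF library. No 2 libraries were duplicates: the chi-square of counts per degree of freedom was 5.14 to 17.51 within groups. Methods were checked on simulated counts. Tables and figures used Python 3.11.15, pandas 2.3.3, numpy 2.4.6 and matplotlib 3.10.9.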

Additional observations from a re-analysis of the deposited data

Results flagged for a closer look

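The day effect differed between normal clones and NF fetuses in 438 genes by the test of the difference itself, a count that was 0 without either of 2 single libraries, and the genes below carry the same dependence. Adjusted p-values of the difference, from edgeR's quasi-likelihood test over all genes, follow by group. Among matrix, tendon and bone genes they were 0.00694 for MFAP5, 0.0236 for ASPN, FMOD and TNMD, 0.0285 for DCN, 0.0314 for DPT, 0.0401 for SPP1 and 0.0436 for SPARC. All of these rose in day 35 over day 30 clones, and all except TNMD had at least 134 CPM or, for MFAP5, 47.9 CPM in every NF library.

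Epithelial genes gave 0.0236 for CDH17 and HNF4A, 0.0288 for KRT4, 0.0291 for VIL1, 0.0295 for TSPAN1 and 0.0379 for LGALS2. The lipoprotein gene APOA1 lay just under the threshold, at 0.05 as rounded. AOC1, an amine oxidase that breaks down histamine and polyamines, did not pass the filter in the comparison of clones alone and gave 0.038; it had 12.8, 19.6 and 1.65 CPM in day 35 clones, against 0 in day 30 clones, and 0 and 0 CPM in day 35 NF fetuses, against 1.96 and 2.95 CPM in day 30 NF fetuses. SRSF11 gave 0.0493, with 0 and 5.37 CPM in day 35 NF fetuses, against 6.58 and 9.63 CPM in day 30 NF fetuses.

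Muscle and vessel wall genes gave 0.0275 for TNNT3, 0.0285 for SIX4, 0.0341 for CNN1, 0.038 for DES and 0.0493 for MYLPF. Nerve and glial genes gave 0.038 for PRPH, 0.0429 for SYN1, 0.0465 for FABP7 and 0.0479 for SCG2. Blood genes gave 0.0341 for SLC4A1, 0.038 for TYROBP and 0.0406 for C1QB.

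Genes of cell division and early growth gave 0.0314 for RFC1, 0.0398 for KIF11, 0.0432 for MYCN, 0.0457 for TOP2A and UHRF1, and 0.0465 for ORC1. Patterning and signalling genes gave 0.0272 for TGFBR1, 0.0295 for SOX9, 0.042 for BMPR1B, and 0.0426 for RUNX2 and DKK3. Growth factor and imprinted genes gave 0.0236 for PHLDA2, 0.0285 for IGFBP7, 0.0395 for IGFBP6 and 0.0473 for IGF1R.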

How the results depend on the processing

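Of 3635 calls between day 35 and day 30 clones, other settings gave 911 with all 14 fetus libraries, 953 with records matched with version (2656 genes tested, against 9067) and 2175 to 3553 on leaving out each library, the lowest without day 30 replicate 2. Calls were 3406 with DESeq2, 3670 with RLE size factors, 3684 with limma on TPM (1600 higher and 2084 lower), 3559 without a filter, 3697 with a filter at 1 CPM, 2677 with 10 libraries and 3595 with the length offset. Of the 137 called genes the text names, LHX2, TBX4, ERG, HSPH1, HSP90B1 and HSPA8 not counted, 120 kept their call on leaving out every library in turn. With all 14 fetus libraries 81 kept it, and 0 changed sign in any setting. Replicate numbers gave no sign of pairing: same-numbered deviations correlated at -0.057, 0.012 and -0.024, and no library correlated best with its own number. With 3 libraries per day these values cannot exclude a pairing. With replicate number as a block 2904 genes were called.

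The 438 calls for the difference of day effects became 1128 with DESeq2, 2 with all 14 fetus libraries, 50 with records matched with version, 3 with the replicate block, and 0 to 1847 on leaving out each library. The 0 calls between day 35 and day 30 NF fetuses became 11 with DESeq2 and 0 to 794 on leaving out each NF library, the highest without day 30 NF replicate 2, alternatives chosen after seeing the data. Where a library was left out of an NF group, the lone remaining library was assumed to vary like the other groups. The causes were not tested, except that fewer genes entered the version match and that the spread was larger with 14 libraries. List medians moved by more than their spread in 58 combinations of list and setting and by less in 549. Depth limits genes with few counts, such as GATA1 and NKX2-5.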
